A study of Mus musculus with 16 samples.

Results

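Foxi1, Hmx2, Hmx3, Dmrt2 and Tfcp2l1 are 5 transcription factor genes of intercalated cells, the acid-base cells of the kidney collecting duct. They were looked up by symbol in the table of gene counts, where all 5 of the 28971 genes were found and all 5 were among the 15615 genes with enough reads to be tested. They were chosen by their measured read counts in these Hes1 cKO and control columns, so their levels are a description. They were part of the fit over all genes, but no p-value is given for them and nothing is read from their calls.

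Whole-kidney RNA was sequenced from mice with floxed Hes1 on both alleles together with the Pax8-rtTA and TRE->Cre transgenes (Hes1 cKO, conditional knockout) and from littermates labelled wild type (control). All mice of both groups drank doxycycline at 1 mg/mL with 5% sucrose for 1 week from 3 weeks of age. With the Pax8 promoter, doxycycline turns on Cre in the tubule epithelium and collecting duct as a whole, so deletion is not limited to 1 cell type, and the alleles of the controls beyond wild type are not given. The columns used name 3 Hes1 cKO and 4 control libraries, with 16973931 to 20420422 counts each, and the library numbers below only name columns. Whether each library is a separate animal is not stated in the column names, so p-values measure the spread between these libraries.

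Intercalated cells secrete acid or base and stand beside principal cells, which take up sodium and water. Notch signaling and its target Hes1, a transcriptional repressor, are known to favor principal cells, and Foxi1 is known to be required for intercalated cells to form. Type A intercalated cells secrete acid through a proton pump and the chloride-bicarbonate exchanger Slc4a1, and type B cells secrete base through pendrin (Slc26a4).

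Hes1 itself checked the group names. It was at 17.2 to 19.8 CPM (read count scaled to TMM-adjusted library size) in the Hes1 cKO libraries and at 42.8 to 67.6 CPM in control, and fell by 1.61 on the log2 scale (edgeR adjusted p 0.00357, SE 0.16). Xist, which is transcribed from the inactive X of females, was at 333 to 367 CPM in 3 libraries (Hes1 cKO 3, control 3 and control 4) and at 0.0574 to 0.371 CPM in the other 4. Adrenal genes, of which 9 of 9 were in the table, summed to 1175 CPM in Hes1 cKO 3, 888 CPM in control 1 and 226 CPM in control 2, and to 2.77 to 50.4 CPM in the other 4 libraries. Fewer cells of a type and less RNA per cell cannot be told apart in RNA of a whole organ, and this holds for each result below.

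Foxi1 (ENSMUSG00000047861), the forkhead factor, lies on the minus strand at chr11:34204338-34208089 (GRCm38, GENCODE M21). Libraries Hes1 cKO 1, 2 and 3 held 133.5, 118.1 and 107.8 CPM of Foxi1, while control 1, 2, 3 and 4 held 26.5, 39.9, 32.9 and 31.7 CPM. Every Hes1 cKO library was higher than every control library, and the lowest of them stood 2.70-fold above the highest control. Group means were 119.8 ± 12.9 CPM (SD, n = 3) against 32.7 ± 5.53 CPM (SD, n = 4), and the fitted log2 fold change was 1.87 (SE 0.13).

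Hmx2 (ENSMUSG00000050100) and Hmx3 (ENSMUSG00000040148) encode related homeodomain factors, best known for their part in forming the inner ear. They lie 3.85 kb apart on the plus strand, Hmx3 at chr7:131542867-131544925 and Hmx2 at chr7:131548773-131558014. Hmx2 measured 92.1, 83.7 and 59.3 CPM in the Hes1 cKO libraries against 11.6, 14.9, 15.3 and 15.8 CPM in control. The groups did not overlap, with the lowest Hes1 cKO library 3.75-fold above the highest control, and the log2 fold change was 2.44 (SE 0.16). Hmx3 had few reads: 83, 86 and 45 counts in Hes1 cKO 1, 2 and 3, against 8, 14, 12 and 10 in control 1, 2, 3 and 4. Its levels of 4.39, 4.25 and 2.65 CPM stood apart from 0.459, 0.741, 0.659 and 0.546 CPM, with a log2 fold change of 2.63 (SE 0.29).

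The proportion of the 2 Hmx genes overlapped between the groups. Hmx2 had 19.7 to 22.4 times the CPM of Hmx3 in the Hes1 cKO libraries and 20.1 to 29.0 times in control. The longest run of bases that annotated transcripts of both genes have in common is 39, against reads of 150 bp, and the third gene of the family, Hmx1, had 1 count in Hes1 cKO 2, 1 in Hes1 cKO 3 and none in the other libraries. The proportion of Foxi1 to Hmx2 did not overlap. Foxi1 had 1.41 to 1.82 times the CPM of Hmx2 in Hes1 cKO and 2.00 to 2.67 times in control.

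Dmrt2 (ENSMUSG00000048138), a DM-domain factor known from the patterning of the somites and reported in type A intercalated cells, lies at chr19:25672411-25678991 on the plus strand. It measured 11.1, 11.6 and 15.9 CPM across libraries Hes1 cKO 1, 2 and 3, against 7.285, 6.99, 11.2 and 10.6 CPM across control 1, 2, 3 and 4. The groups overlapped, since control 3 lay above Hes1 cKO 1. The log2 fold change was 0.51 (SE 0.21), and it was 0.33 without Hes1 cKO 3, a library with both high Xist and the highest adrenal sum.

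The spread of Dmrt2 within each group went with Xist. Among the libraries with low Xist, Dmrt2 was at 11.1 and 11.6 CPM in Hes1 cKO against 6.99 and 7.285 CPM in control, a ratio of means of 1.59. Among the libraries with high Xist, it measured 15.9 CPM in the Hes1 cKO library against 10.6 and 11.2 CPM in control, a ratio of 1.46. Within each class of Xist the groups did not overlap. The classes hold 1 Hes1 cKO and 2 control libraries (high Xist) and 2 of each (low Xist), too few to read a difference from this. With Xist as a covariate, added after these values were seen, the log2 fold change was 0.62. Leaving out the 2 libraries of highest adrenal sum (Hes1 cKO 3 and control 1) gave a log2 fold change of 0.24. Neither this fit nor the one without Hes1 cKO 3 alone has a Hes1 cKO library with high Xist. Control 3 and control 4, with high Xist, remain in both, so Xist is not balanced between the groups there. The sex recorded for the titled kidneys cannot be matched to these columns. The part of sex and of adrenal tissue in the level of Dmrt2 was not tested.

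**Figure D1:**
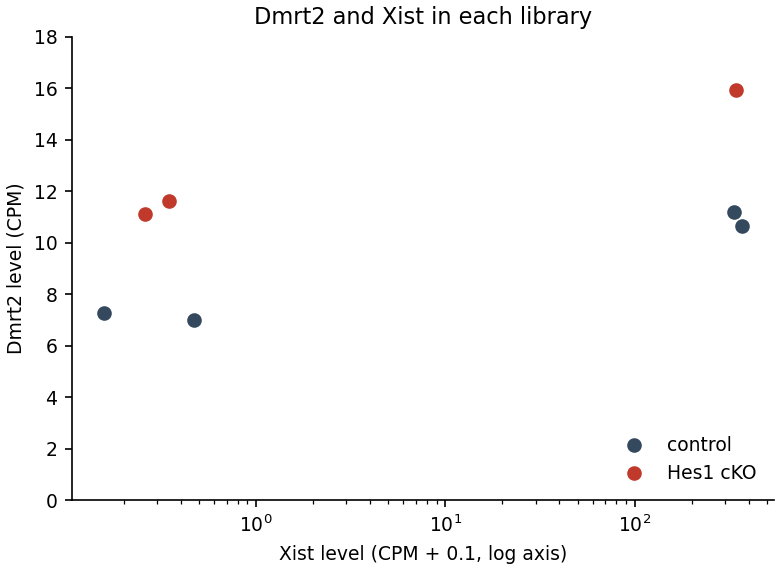
Dmrt2 level (CPM) against Xist level (CPM + 0.1, log axis), 1 point for each of 3 Hes1 cKO and 4 control libraries. On either side of the Xist gap the Hes1 cKO points lie above the control points, while control 3 (11.2 CPM) lies level with Hes1 cKO 1 (11.1 CPM) from the other side.

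Tfcp2l1 (ENSMUSG00000026380), a factor of the grainyhead and CP2 family known to be needed for the mix of cells in the collecting duct, lies at chr1:118627945-118685168 on the plus strand. It measured 634, 640 and 588 CPM in the Hes1 cKO libraries against 516.5, 484, 527 and 513 CPM in control. The groups did not overlap, but the lowest Hes1 cKO library was only 1.12-fold above the highest control. The log2 fold change was 0.28 (SE 0.08). Its coefficient of variation was 3.58% in control and 4.57% in Hes1 cKO, against 13.1% to 24.4% in control and 10.8% to 25.8% in Hes1 cKO for the other 4 genes.

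**Figure D2:**
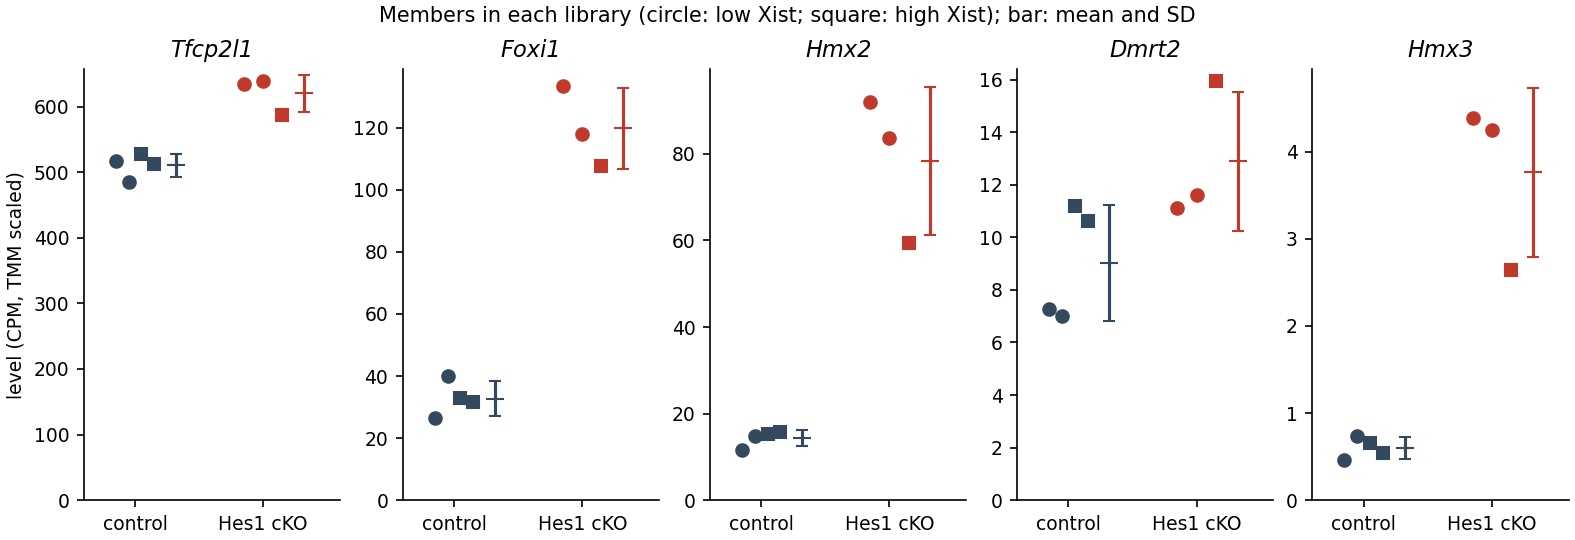
Level of each of the 5 genes (CPM, linear axis from 0) in every library; circles are libraries with low Xist, squares those with high Xist, and bars give mean and SD of 4 control and 3 Hes1 cKO libraries. Foxi1, Hmx2, Hmx3 and Tfcp2l1 show a gap between the groups, which is widest in relative terms for Hmx2 (3.75-fold) and narrowest for Tfcp2l1 (1.12-fold), and Dmrt2 shows none.

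Of the 5 genes, 4 did not overlap between the groups and were higher in Hes1 cKO, where 3.71% of tested genes did the same. By edgeR's quasi-likelihood test 3 of the 5 (Foxi1, Hmx2 and Hmx3) were called at an adjusted p under 0.05, where 0.339% of all tested genes were called in either direction, 0.32% as higher and 0.0192% as lower. The same contrast chose the genes, so nothing is read from these counts. Over all tested genes, DESeq2 called 0.813% (0.608% higher, 0.205% lower), limma-voom 0.327% (0.307% higher, 0.0192% lower) and edgeR with Xist as a covariate 0.423% (0.378% higher, 0.0448% lower). An unadjusted p under 0.05 was reached by 5.95% of genes, and 3.29% had groups apart with Hes1 cKO lower.

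Within the Hes1 cKO group 3 of the genes ranked the libraries alike: Foxi1, Hmx2 and Hmx3 were each highest in Hes1 cKO 1 and lowest in Hes1 cKO 3. In the control group the same 3 genes were each lowest in control 1. Hes1 cKO 3 and control 1 are the 2 libraries with the highest adrenal sum. Leaving both out gave log2 fold changes of 1.85 for Foxi1, 2.52 for Hmx2, 2.72 for Hmx3 and 0.33 for Tfcp2l1, close to those with all 7 libraries.

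Levels of different genes were compared per length, as CPM per kilobase of annotated exon. In control the order was Tfcp2l1 at 54.1 ± 1.94 (SD, n = 4), Foxi1 at 13.9 ± 2.35, Hmx2 at 4.48 ± 0.586, Dmrt2 at 3.86 ± 0.941 and Hmx3 at 0.413 ± 0.0852 CPM per kilobase. Hmx2 and Dmrt2 were not separated there, as their ranges of 3.62 to 4.92 and 2.99 to 4.79 CPM per kilobase overlapped. In Hes1 cKO the order was the same, with Tfcp2l1 at 65.7 ± 3.01 (SD, n = 3), Foxi1 at 50.8 ± 5.49, Hmx2 at 24.4 ± 5.28, Dmrt2 at 5.52 ± 1.14 and Hmx3 at 2.58 ± 0.665 CPM per kilobase, and no 2 neighbours overlapped. Foxi1 thus came close to Tfcp2l1 in Hes1 cKO, with ranges of 45.7 to 56.6 and 62.3 to 67.8 CPM per kilobase.

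The genes around each factor were not used to choose it. On the Foxi1 side, the nearest gene in the direction of its transcription is Gm12121 (ENSMUSG00000086243), a long intergenic noncoding RNA at chr11:34141827-34143421, 60.9 kb away on the other strand. It measured 35.1, 27.5 and 24.9 CPM across libraries Hes1 cKO 1, 2 and 3, against 8.83, 9.16, 12.35 and 9.39 CPM across control 1, 2, 3 and 4. Gm12121 rose by 1.55 on the log2 scale (edgeR adjusted p 0.00357, SE 0.16), and its groups did not overlap.

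A second gene of that locus, 4930469K13Rik (ENSMUSG00000085684), annotated as protein coding at chr11:33973961-34098554 and named here after its value was seen, rose as well. Its mean was 10.53 ± 2.69 CPM (SD, n = 3) against 2.28 ± 0.397 CPM in control (SD, n = 4), a difference of 2.20 on the log2 scale (edgeR adjusted p 0.00357, SE 0.23). It overlaps Lcp2, a signaling adaptor gene of blood cells on the opposite strand, and 282 of its 1041 exon bases are also exon bases of Lcp2. The sources do not say whether counting used strand, so reads from those shared bases may belong to either gene. Lcp2 had a log2 fold change of 1.17 (SE 0.38) and was not called (edgeR adjusted p 0.6705). Summed immune cell markers (6 of 6 in the table, none at 0 throughout) ranged from 9.53 to 18.3 CPM in Hes1 cKO and from 13.2 to 15.4 CPM in control, and their part in these values was not tested.

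The gene next to Foxi1 on its other side, Dock2, an activator of Rac in leukocytes, lies 18.7 kb away and had a fold change of -0.05 on the log2 scale (edgeR adjusted p 0.9965, SE 0.32). Within 250 kb of Foxi1, a distance set after the values were seen, 2 of 5 tested genes were called and both rose, against 0.339% of all tested genes. Both calls held in all 15 alternatives, with log2 fold changes of 1.40 to 1.68 for Gm12121 and 2.01 to 2.40 for 4930469K13Rik. Foxi1 had 2.66 to 4.36 times the CPM of Gm12121 in control and 3.81 to 4.32 times in Hes1 cKO, ranges that overlap.

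None of the tested genes around Hmx2 and Hmx3 was called. Both lie inside the annotated span of Fgfr2, a fibroblast growth factor receptor gene on the other strand, with which they share 0 exon bases. Fgfr2 measured 46.0, 34.1 and 37.8 CPM in Hes1 cKO against 37.1, 27.8, 37.4 and 28.4 CPM in control, with overlapping groups, and had the highest log2 fold change of the window (0.27, SE 0.15, edgeR adjusted p 0.9275). Bub3, a spindle checkpoint gene that starts 2.21 kb beyond Hmx2, had a fold change of -0.02 on the log2 scale (edgeR adjusted p 0.9925, SE 0.08), and Acadsb, a mitochondrial acyl-CoA dehydrogenase gene 93.9 kb before Hmx3, had one of 0.04 (edgeR adjusted p 0.9925, SE 0.14). EdgeR's test called 0 of 7 tested genes within 250 kb, with 0 at an unadjusted p under 0.05 and 0 by DESeq2 and limma-voom. The nearest gene with a row before Hmx3, the pseudogene Gm44984, had too few reads to be tested. Whether the neighbours of Foxi1 and of the Hmx genes differ from each other was not tested.

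Near Dmrt2, the antisense gene 2610016A17Rik starts 0.158 kb before the start of Dmrt2 and is transcribed away from it. Its fold change was 0.26 on the log2 scale (edgeR adjusted p 0.975, SE 0.36), and the pseudogene Gm8825 on the other side was not tested. Beside Tfcp2l1, Clasp1, a microtubule-binding gene 15.3 kb away, had a fold change of 0.05 on the log2 scale (edgeR adjusted p 0.982, SE 0.08). Gli2, a transcription factor of Hedgehog signaling 149 kb away, measured 6.77, 13.9 and 5.59 CPM in Hes1 cKO against 0.688, 5.61, 0.604 and 2.78 CPM in control. The groups of Gli2 overlapped between Hes1 cKO 3 and control 2, and it was not called (log2 fold change 1.85, SE 0.66, edgeR adjusted p 0.699).

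**Figure D3:**
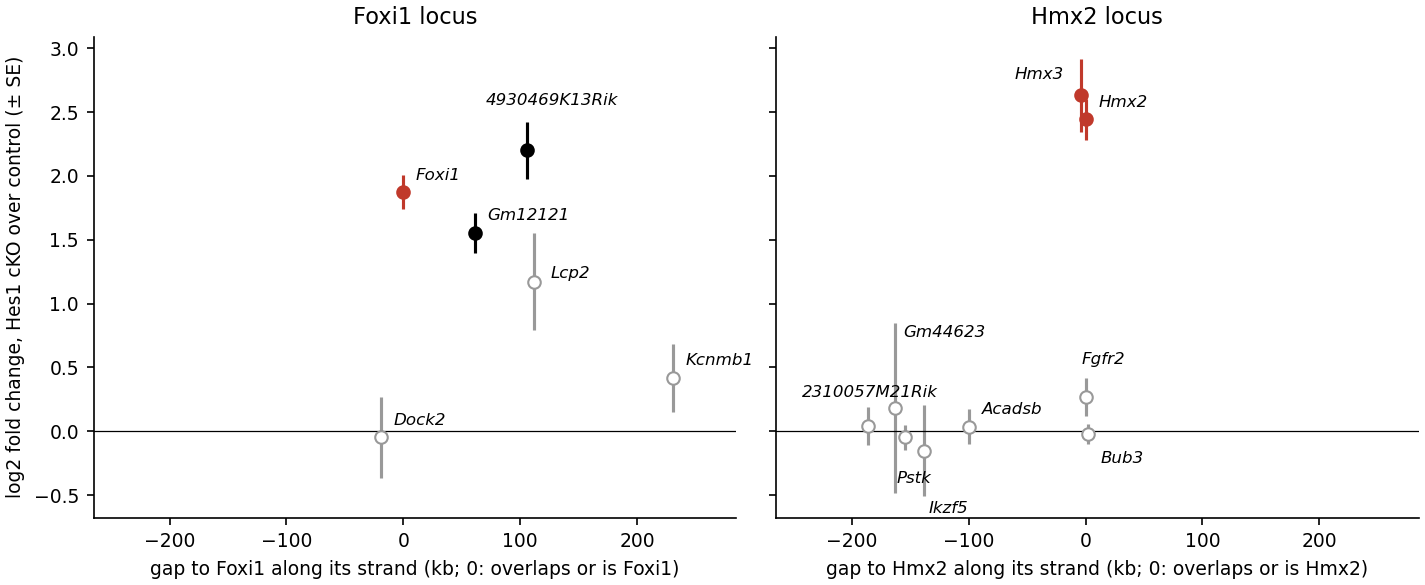
Log2 fold change (Hes1 cKO over control, bars SE) of the tested genes within 250 kb of Foxi1 and of Hmx2, against their gap in kb along the strand of that gene; red marks Foxi1, Hmx2 and Hmx3, black called genes and open grey genes that were not called. Gm12121 (1.55) and 4930469K13Rik (2.20) stand near Foxi1 (1.87), while Bub3 (-0.02) and Acadsb (0.04) stand at 0 beside Hmx2 (2.44).

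The stretches of DNA before the starts of Foxi1 and Hmx2 are shown because these genes had the widest gaps between groups among the well-counted members. They are the 250 bases before the RefSeq start on GRCm38.p6, chr11:34208090-34208339 on the minus strand and chr7:131548507-131548756 on the plus strand, and neither holds an annotated exon. A 30-base stretch before Dmrt2, chr19:25672284-25672313 on the plus strand, is shown because it holds the 1 match found among the windows, in capitals, an N-box (a site type known for Hes proteins) read on the other strand.
Foxi1: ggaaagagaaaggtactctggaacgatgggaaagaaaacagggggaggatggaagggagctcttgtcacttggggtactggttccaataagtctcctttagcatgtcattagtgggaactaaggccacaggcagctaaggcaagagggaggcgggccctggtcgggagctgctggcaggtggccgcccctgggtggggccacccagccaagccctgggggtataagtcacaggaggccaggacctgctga
Hmx2: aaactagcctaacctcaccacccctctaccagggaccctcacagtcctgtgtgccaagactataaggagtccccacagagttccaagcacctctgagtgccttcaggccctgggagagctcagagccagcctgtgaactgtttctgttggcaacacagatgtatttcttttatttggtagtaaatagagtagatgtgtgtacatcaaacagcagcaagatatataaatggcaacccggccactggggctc
Dmrt2: gggcgctcagccCTAGTGctccggccaatc

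The windows of all 5 genes (6 windows, since Hmx2 has 2 starts) were searched on both strands for the N-box CACNAG, the class C E-box CACGTG or CACGCG, and the forkhead motif TGTTTAC or TGTTTGC. No site can match both the N-box and the E-box. The N-box occurred in Dmrt2 alone, 115 to 110 bases before the start, in a window that overlaps annotated exons. Of the 32851 RefSeq windows of this length, 36.7% hold one. The class C E-box was in none of the 6 windows and is in 12.9% of all windows, and the forkhead motif was in none and is in 7.29%. A window with no match says only that these letters are not in it. The 250 bases before Foxi1 are 58.8% G and C, and the median over all windows is 52.4%. The window of Hmx2 shown is 49.6% G and C, and its second window, which overlaps annotated exons, 70.0%.

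Targets reported for Foxi1 in other work are Slc4a1, Slc4a9, Slc26a4, Atp6v1b1 and Atp6v0a4. Of these 5 genes 3 rose by edgeR's test and 2 were not called, where 0.32% of all tested genes were called higher. Their median log2 fold change was 0.73, against -0.0064 over all tested genes. This list and those below were chosen with earlier results of these data known. The exchanger Slc4a9 measured 384, 356 and 281 CPM in Hes1 cKO against 77.2, 92.4, 104 and 122 CPM in control. Like Foxi1, Slc4a9 was highest in Hes1 cKO 1 and lowest in Hes1 cKO 3, and it rose by 1.78 on the log2 scale (edgeR adjusted p 0.00283, SE 0.16). Pendrin (Slc26a4) rose by 1.57 on the log2 scale (edgeR adjusted p 0.0104, SE 0.20), and the B1 subunit of the proton pump (Atp6v1b1) by 0.73 (edgeR adjusted p 0.0369, SE 0.12). Slc4a1 measured 134, 120 and 135 CPM against 102.5, 76.6, 124 and 86.6 CPM, with overlapping groups, and was not called (log2 fold change 0.41, SE 0.15, edgeR adjusted p 0.718). Atp6v0a4 was not called either (log2 fold change 0.17, SE 0.10, edgeR adjusted p 0.934). Without Hes1 cKO 2 the list had 1 call, and the call of Atp6v1b1 was lost without any 1 library other than control 1.

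By subtype, 3 of 5 genes of type B cells rose (Slc26a4, Slc4a9 and Insrr) and 1 of 5 of type A cells (Kit, a receptor tyrosine kinase). Log2 fold changes were positive for 5 of 5 type A and 4 of 5 type B genes. An unadjusted p under 0.05 was reached by 5 type A and 3 type B genes, and by 5.95% of all tested genes. Summed over the 5, type B genes were at 712 to 811 CPM in Hes1 cKO and 210 to 311 CPM in control, and type A genes at 480 to 500 CPM and 289 to 393 CPM. The call of Kit (log2 fold change 1.08, SE 0.15, edgeR adjusted p 0.0206) was lost without any 1 of the Hes1 cKO libraries (edgeR adjusted p up to 0.134) and without the 2 libraries of highest adrenal sum (edgeR adjusted p 0.0807). Its log2 fold change was 1.04 without those 2 and 1.045 to 1.11 without 1 Hes1 cKO library, close to that with all 7. DESeq2 called 4 of the 5 type A genes. The difference between the subtypes was not tested. Of 10 genes that both subtypes share, 4 rose, all proton pump subunits (Atp6v1b1, Atp6v1c2, Atp6v0d2 and Atp6v1g3), and none was called lower. Among those not called, log2 fold changes were 0.88 for Hepacam2, 0.17 for Atp6v0a4, 0.05 for Bsnd, -0.17 for Car2, -0.18 for Rhcg and -0.47 for Rhbg. Without Hes1 cKO 1 or without Hes1 cKO 2 there were 2 calls. Whether other kidney cells also express these 10 genes was not tested.

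Set against those 10 shared genes in the same library, the 5 factors differed in direction. Foxi1 stood above the mean log2(CPM + 1) of the shared genes by 0.683, 0.462 and 0.277 in Hes1 cKO 1, 2 and 3, and its relative level was -0.933, -0.624, -1.03 and -1.02 in control 1, 2, 3 and 4. The Hes1 cKO minus control difference of this relative level was 1.37 for Foxi1, 1.87 for Hmx2 and 1.08 for Hmx3, whose low counts shrink it on this scale. It was 0.0037 for Dmrt2, with overlapping groups, and -0.195 for Tfcp2l1, whose Hes1 cKO libraries (2.71 to 2.92) lay just below control (2.94 to 3.30). Set against Atp6v0a4 alone the differences were 0.312 for Dmrt2 and 0.113 for Tfcp2l1, and against Atp6v1b1 alone -0.261 and -0.46, so the sign of these 2 depends on the gene chosen. For Foxi1, Hmx2 and Hmx3 all 3 scalings gave positive differences, smallest of the 3 against Atp6v1b1 alone (1.11, 1.61 and 0.813). The size of these differences also depends on the gene chosen. Atp6v1c2, Atp6v0d2, Atp6v1g3 and Hepacam2 had higher log2 fold changes (1.36, 1.25, 1.02 and 0.88) than Atp6v1b1 (0.73). None of them was used alone as a scale, and the rest of the 10 had lower ones. These values use the contrast that chose the genes and carry no test.

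**Figure D4:**
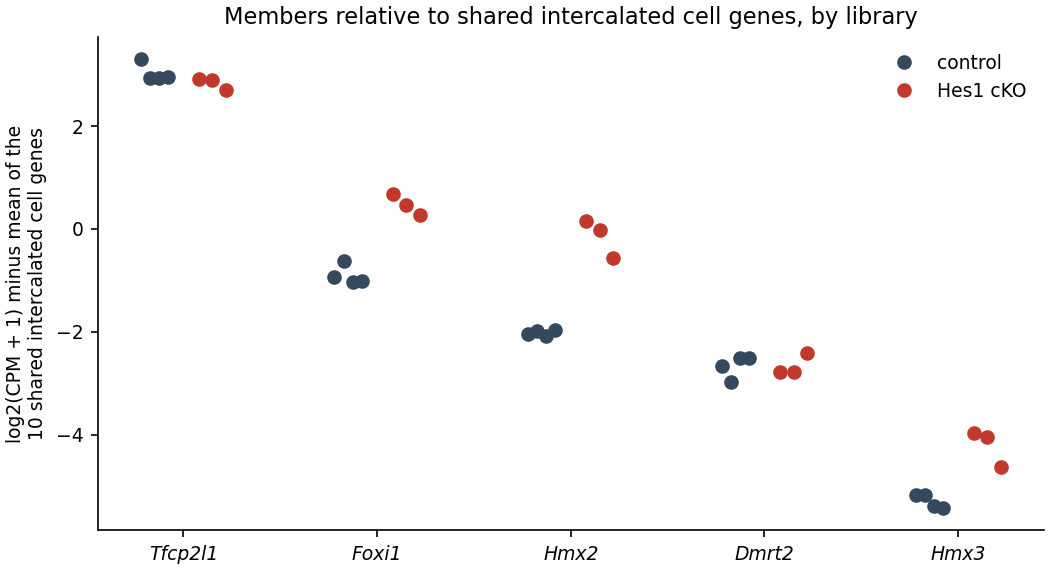
Each factor's log2(CPM + 1) minus the mean of 10 shared intercalated cell genes in the same library, for 4 control and 3 Hes1 cKO libraries. Foxi1, Hmx2 and Hmx3 are higher in every Hes1 cKO library than in any control library, and Dmrt2 overlaps, and Tfcp2l1 is slightly lower in Hes1 cKO (2.71 to 2.92 against 2.94 to 3.30).

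Transcription factors of the collecting duct in general, such as Gata3 and Elf5 of principal cells and Grhl2 of the whole duct, were measured next. EdgeR's test called 0 of 18, with 0 at an unadjusted p under 0.05 and 0 by DESeq2 and limma-voom, and log2 fold changes ran from -0.25 to 0.36 (median 0.04). Gata3 measured 32.5, 30.0 and 31.8 CPM in Hes1 cKO against 18.5, 26.9, 31.8 and 33.0 CPM in control (log2 fold change 0.19, SE 0.18, edgeR adjusted p 0.962). Elf5 had a fold change of 0.31 on the log2 scale (edgeR adjusted p 0.959, SE 0.26). All 7 tested principal cell genes had negative log2 fold changes (median -0.53), with 5 at an unadjusted p under 0.05 and 4 called by DESeq2. By edgeR's test 1 fell, Hsd11b2, the enzyme that inactivates cortisol and corticosterone (log2 fold change -1.12, SE 0.14, edgeR adjusted p 0.0104); this call was lost without Hes1 cKO 1 or without Hes1 cKO 2. The water channel Aqp2 had a fold change of -0.78 on the log2 scale (edgeR adjusted p 0.512, SE 0.22) and was not called by edgeR, but was by DESeq2 (adjusted p 0.0174) and by edgeR with no low-count filter (adjusted p 0.0356).

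Relatives of the 5 factors by family were also measured. EdgeR's test called 0 of 28 tested relatives, of which Grhl2 is also among the 18 duct factors, and DESeq2 and limma-voom called 0. An unadjusted p under 0.05 was reached by 3 (Foxp1, Foxa1 and Foxn3), and by 5.95% of all tested genes. Log2 fold changes were positive for 23 of the 28, with a median of 0.161 against -0.0064 over all tested genes. The most abundant forkhead relative, Foxo3, a factor of stress and insulin signaling, measured 108.0, 132 and 132 CPM in Hes1 cKO against 112, 98.3, 137 and 130 CPM in control (log2 fold change 0.05, SE 0.13, edgeR adjusted p 0.992). Ubp1, the most abundant relative of Tfcp2l1, had a fold change of -0.03 on the log2 scale (edgeR adjusted p 0.988, SE 0.07). None of the 5 other Dmrt genes in the table had enough reads to be tested. Foxi2 and Foxi3, the closest relatives of Foxi1, had no row in the table used.

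**Figure D5:**
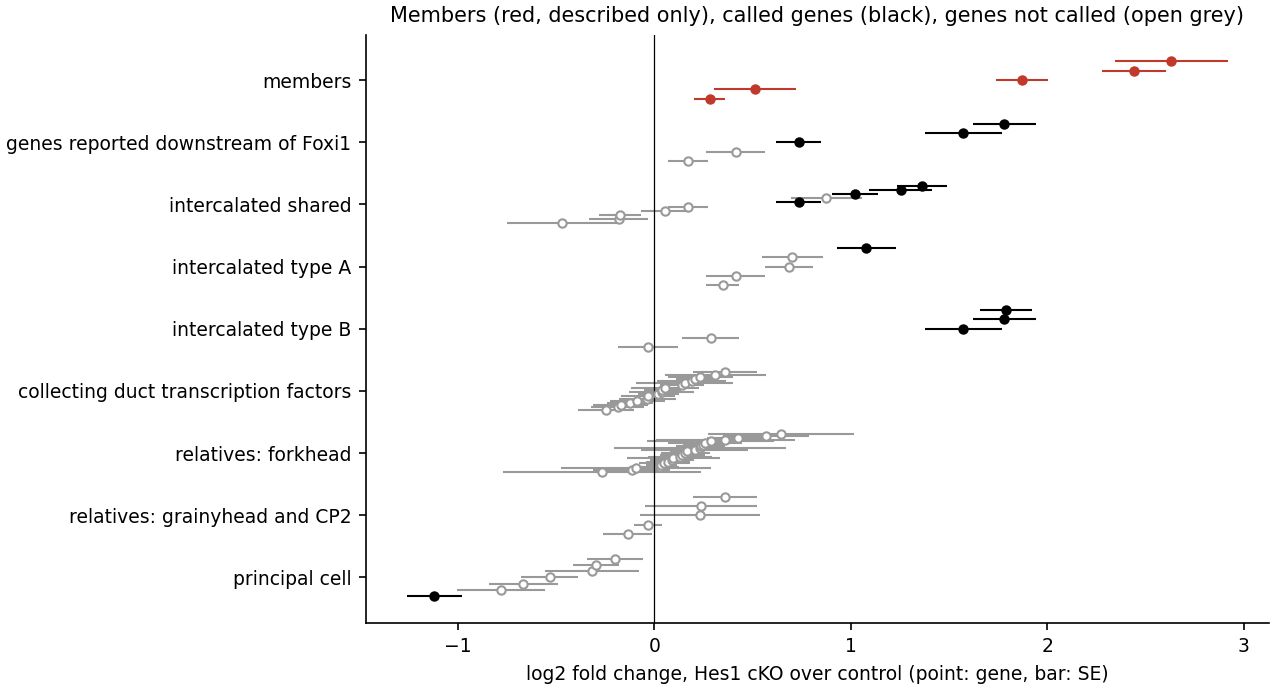
Log2 fold change (Hes1 cKO over control, bars SE) of the 5 factors in red, as a description, and of tested genes of 8 lists, with called genes in black and others as open grey points. The 18 collecting duct transcription factors lie between -0.25 and 0.36, a range that holds Tfcp2l1 (0.28) but not Dmrt2 (0.51). Foxi1, Hmx2 and Hmx3 lie between 1.87 and 2.63. The 5 factors were chosen by this contrast, so nothing is read from their distance to the lists.

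For each factor the 3 genes with the most similar profile were found, by the root mean square difference of mean-centred log2(CPM + 1) over the 7 libraries, among 14139 genes. Nearest to Foxi1 were Gm47795 (difference 0.178), Insrr, an alkali-sensing receptor (0.179), and Syt7, a calcium sensor of exocytosis (0.201). Nearest to Hmx2 were Tldc2, a gene with a TLDc domain (0.186), Gm47795 (0.261) and Aldh1l2, a mitochondrial folate enzyme (0.272). Nearest to Hmx3, whose low level flattens its profile, were Gm12121 (0.172), the ligand gene Wnt6 (0.204) and Slc4a9 (0.215). Gm12121 has a smaller log2 fold change (1.55) than Hmx3 (2.63), so this match depends on the pseudocount of 1. The differences include the group contrast that chose the factors, so no link between genes is read from them.

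Dmrt2 and Tfcp2l1 had other companions. Nearest to Dmrt2 were Rp1, a microtubule gene of photoreceptors (0.0712), Hgfac, which activates hepatocyte growth factor (0.111), and Rsl1, a zinc finger repressor known for sex-limited liver genes (0.112). Rsl1 measured 3.18 CPM in library Hes1 cKO 3 against 2.09 and 1.80 CPM in control 3 and 4, the libraries with high Xist. In those with low Xist it measured 2.43 and 1.88 CPM for Hes1 cKO 1 and 2 against 0.975 and 0.741 CPM for control 1 and 2. Nearest to Tfcp2l1 were Bcam, a laminin receptor (0.0459), Slc7a5, an amino acid transporter (0.0498), and Mlxip, a glucose-sensing factor (0.0508). With a pseudocount of 0.1 in place of 1, 2 of the 3 genes stayed for Foxi1 and for Tfcp2l1 and 1 of 3 for each of the others.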

How the data were processed

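The authors deposited 2 tables of raw read counts per gene, with no normalization. STAR, FastQC and DESeq2 and the builds mm10 and GRCm38 are named, with no role, in the submitters' processing notes; the counting program and its strand setting were not given in the sources used here. Column names of the first table give the genotype of 7 libraries but not which titled sample each is. The 9 columns of the other table show no genotype and were not used. The titles name 7 Hes1 cKO and 9 control kidneys, and the series text gives these sizes the other way round. Sex is recorded for the titled kidneys (Hes1 cKO 4 female and 3 male, control 3 female and 6 male), but not for the columns used.

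Genes were kept by filterByExpr (minimum count 10), scaled by TMM and compared with edgeR's quasi-likelihood test (edgeR 4.0.16, R 4.3.3) with no covariate. P-values were adjusted by Benjamini-Hochberg over all 15615 tested genes, and called means an adjusted p under 0.05. DESeq2 (1.42.0) and limma-voom (limma 3.58.1) were alternatives, and the fits were tested on simulated data. CPM is the count scaled to the TMM-adjusted library size. Pairs of libraries of a group differed by more than counting error (chi-square over its degrees of freedom 11.9 to 41.1). Annotation was GENCODE M21 (GRCm38) and promoter windows were RefSeq's (GRCm38.p6).

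Members and lists were chosen with earlier results of these data known. Named are the members, Hes1, called list genes, Atp6v0a4, Slc4a1, Aqp2, Gata3, Elf5 and Ascl3, called relatives and the most abundant of each family, nearest neighbours, and the 3 genes most alike in profile at a mean CPM of at least 1.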

Additional observations from a re-analysis of the deposited data

Results flagged for a closer look

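Values of the same 4 control libraries formed 40 groups. Of these, 4 held a library far from the rest, with Dixon's ratio of gap to range above the limit for 4 libraries. Chance gives about 1 in 20 groups if they are independent, which groups from the same libraries are not. Control 1 was low for Atp6v1b1 (107.9 CPM against 145.5 to 147.1 CPM, ratio 0.959) and for Atp6v1g3 (39.9 CPM against 54.0 to 56.9 CPM, ratio 0.832), 2 proton pump subunit genes, and high for Dock2 (1.49 CPM against 0.928 to 1.01 CPM, ratio 0.861). Control 3 was high for Gm12121, at 12.35 CPM against 8.83 to 9.39 CPM (ratio 0.842), and still below the lowest Hes1 cKO library (24.9 CPM). None of the 5 intercalated cell factors had such a library.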

How the results depend on the processing

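The Xist covariate and the fit without the 2 libraries of highest adrenal sum were added after seeing the data. The count of called genes, 53, became 127 by DESeq2, 102 with no low-count filter, and 25 to 47 when 1 library was left out (25 without Hes1 cKO 2, 27 without Hes1 cKO 1, 37 without the 2 adrenal-high libraries). Type A calls, 1, became 4 by DESeq2, 3 with no filter, 2 with the Xist covariate, 0 without the 2 libraries and 0 to 2 without 1 library. Principal cell calls, 1, became 4 by DESeq2, 2 with no filter and 0 to 1 without 1 library. Leaving out 1 library gave 2 to 4 shared intercalated calls (main 4) and 1 to 3 calls of Foxi1 targets (main 3). The 52 tested genes of 8 other cell types and of tubular injury had 0 calls by edgeR and limma-voom, 3 at an unadjusted p under 0.05, and 1 call by DESeq2 and 1 with no filter. Log2 fold changes near 0 changed sign: Bub3 (-0.046 to 0.012 without 1 library, 0.025 without the 2), Dock2 (-0.32 to 0.13, 0.28) and Foxo3 (-0.033 to 0.14, -0.023). The causes were not tested. No member changed sign. No paired analysis was possible because the column names give no litter or other pairing of Hes1 cKO with control libraries. Hmx3, with 8 to 14 counts in control, is limited by depth.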

Other observations

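Ionocytes of other epithelia, such as the airway, also use Foxi1, and 6 of their known genes were in the table. Ascl3, a transcription factor of airway ionocytes, had 3 to 8 counts in every library of both groups and was not tested. Of the 3 tested, edgeR, DESeq2 and limma-voom called 0, with 0 at an unadjusted p under 0.05: Cftr, a chloride channel, had a log2 fold change of -0.44 (SE 0.24), Coch, an inner ear matrix gene, 0.62 (SE 0.29), and Stap1, a signaling adaptor, 0.60 (SE 0.42).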
